A study of Homo sapiens with 6 samples.

Results

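The gene expression of ES2 cells cultured with TR was compared with that of ES2 cells cultured with T, the pair of libraries that differs by the addition of R. ES2 is a human ovarian carcinoma line, and RNA was sequenced after 7 days from 6 cultures, 1 library each, titled Control (no drug), T, G, R, TR and GR. The series names T-oligo, a DNA oligonucleotide treatment, and RHPS4, a small molecule that binds G-quadruplexes, but the labels spell out neither T nor R, and TR is read here as T and R together. The titles of all libraries give ES2, whereas the source name gives ES2 for T and Control and SKOV3, another ovarian cancer line, for TR, R, G and GR, so by that field TR and T would also differ in line. Every gene with an FPKM (fragments counted per kilobase of a gene's transcript and scaled by depth) of at least 1 in T or TR was compared, which was 12533 of the 33706 genes in the table. A gene was called higher or lower where the log2 ratio of FPKM + 1, TR over T, was at least 1 or at most -1, a 2-fold difference. With 1 library per group no difference could be tested against replicate spread, and the counting intervals given cover counting error only.

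G-quadruplexes are stacked structures that guanine-rich DNA or RNA strands can fold into, and telomere repeats, many promoters and the mitochondrial genome hold sequences that can form them. Mitochondrial DNA is transcribed from both strands into long precursors that are cut at the tRNAs into mRNAs and ribosomal RNAs, and it encodes core subunits of the respiratory chain whose other subunits come from the nucleus. The integrated stress response is a program in which blocked translation initiation raises the transcription factor ATF4 and, with it, genes of amino acid synthesis, amino acid import and tRNA charging. In dividing cells, the genes of the mitotic spindle and of DNA synthesis rise and fall with the cell cycle.

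The T library held 73213048 counts over all genes and the TR library 79705117, within a range of 73213048 to 83976498 over the 6 libraries. ERBB2, which is amplified in SKOV3, was at an FPKM of 0.249 in T and 0.146 in TR, and CDKN2A, which SKOV3 has lost, was at 83.7 in T and 146 in TR, so neither library showed the SKOV3 pattern at these genes. Of 10 epithelial markers 4 passed the filter, with a summed FPKM of 236 in T and 397 in TR that came from KRT7, KRT8 and KRT18. The epithelial adhesion genes CDH1 and EPCAM were at 0 and 0.0177 in T and at 0 and 0.0136 in TR. Of 7 mesenchymal markers 5 passed, with a summed FPKM of 1672 in T and 1834 in TR, most of it from VIM at 1504 and 1516. Of 7 leukocyte markers only CD68 passed, at 63.5 in T and 50.6 in TR, while the pan-leukocyte gene PTPRC was at 0.00665 and 0.00445, and of 5 endothelial markers only CDH5 passed, at 12.9 and 9.58, while VWF was at 0.0281 and 0.

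On the deposited FPKM more genes were lower in TR than higher, and with TMM or median-of-ratios scaling more were higher than lower. Of the 12533 genes compared, TR exceeded T by 2-fold or more in 752 (6.0%) and lay below it by as much in 1487 (11.9%), 2239 (17.9%) in all. The median log2 ratio was -0.17, with quartiles of -0.67 and 0.34. At 4-fold, 93 genes (0.742%) were higher and 97 (0.774%) lower. The 95% counting interval of the ratio excluded equality for 2237 of the 2239 genes. This split depended on the scaling: higher genes were 33.6% of the calls on the deposited FPKM, whereas with TMM factors 1464 were higher and 780 lower (65.2% higher), and with median-of-ratios factors 1382 were higher and 844 lower (62.1% higher). Those factors moved the median ratio to 0.11 and 0.08. Of the genes compared, 416 passed the filter in TR alone and 1659 in T alone. The former had to lie above 0 and the latter below 0, also within the gene lists below. In bulk RNA, fewer cells of a kind and less RNA per cell cannot be told apart, which holds for every result here.

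**Figure D1:**
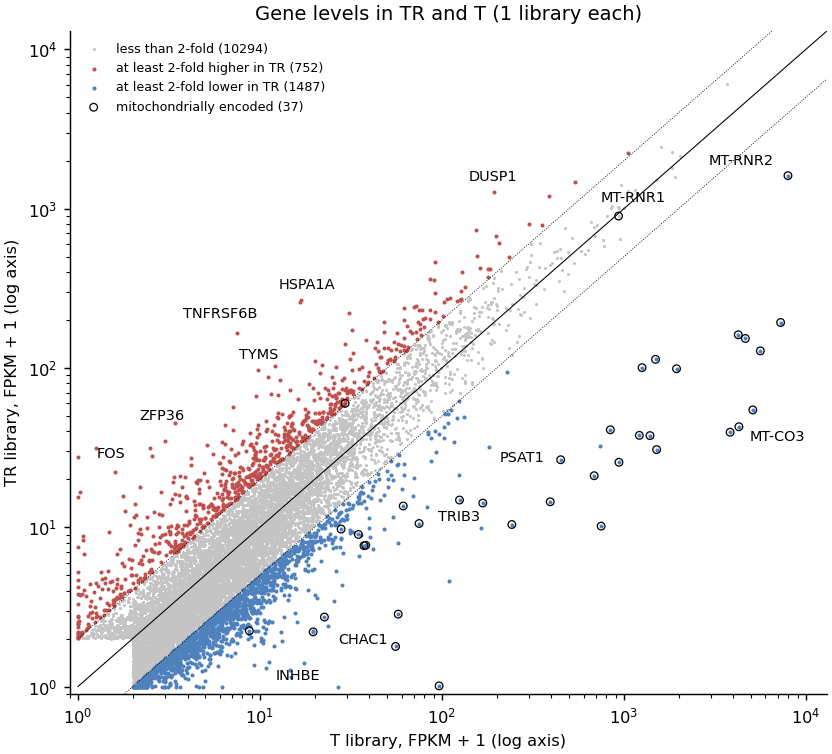
Level of each of the 12533 genes in T (x axis) and TR (y axis), as FPKM + 1 on log axes, with 1 library per axis. The solid line marks equality and the dotted lines 2-fold; 752 genes lie above the upper line, 1487 lie below the lower line, and most of the circled mitochondrial genes lie far below it.

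Among the lists compared, the median farthest from 0 was that of mRNAs made from mitochondrial DNA, and of the mitochondrial genes 35 of 37 were at least 2-fold lower in TR than in T. Their share of all counts was 5.44% in T (95% Wilson interval 5.435% to 5.446%) and 0.474% in TR (0.472% to 0.475%). In the other libraries the share was 6.98% in Control, 6.17% in G, 0.351% in R and 0.893% in GR, so the 3 libraries with R were all below the 3 without it. All 13 mRNAs were lower, by a median log2 ratio of -4.77 and a range from -6.65 for MT-CO3 to -3.65 for MT-CYB, and 5 of them share bases with a same-strand neighbour. In the pair R against Control the median was -5.61, and in GR against G it was -4.34, 2 pairs that share no library with TR and T. The difference in TR against T was smaller than in R against Control for 12 of the 13 mRNAs and larger than in GR against G for all 13, although these differences between pairs were not tested.

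The ratio was not the same for all mRNAs along the genome. MT-CO3, a subunit of cytochrome c oxidase (complex IV), had an FPKM of 4286 in T and 41.8 in TR. MT-ND4L and MT-ND4, subunits of NADH dehydrogenase (complex I), went from 3833 to 38.5 and from 5110 to 53.5, with log2 ratios of -6.60 and -6.55. MT-CYB, the subunit of complex III, had 1258 in T and 99.4 in TR, and MT-ND1, a complex I subunit, had 1492 and 112, with a ratio of -3.72. The 8 genes from MT-CO1 to MT-ND4 had a median ratio of -5.35, and the 5 genes outside that stretch, on either side of it, had a median of -4.08. The stretch was set with earlier results of these data known, so this split is a description. MT-CO3, MT-ND4L and MT-ND4, which had the lowest ratios, each share bases with a same-strand neighbour. MT-ND6, the one mRNA of the other strand, had 449 in T and 25.5 in TR, a ratio of -4.08. Its transcript is 35.6% G with 36.2 runs of GGG or longer per kilobase, whereas the other 12 mRNAs had 0 to 6.38 such runs per kilobase, and only MT-CYB and MT-ND1 differed less than MT-ND6 between TR and T.

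The ribosomal RNAs departed from the mRNAs. MT-RNR1, the 12S rRNA of the small mitochondrial subunit, had an FPKM of 934 in T and 898 in TR, a log2 ratio of -0.06. MT-RNR2, the 16S rRNA of the large subunit, had 7973 in T and 1611 in TR, a ratio of -2.31. MT-RNR1 thus stayed near its T level while its downstream neighbours did not. The libraries were oligo(dT)-selected, and whether capture differed between mitochondrial RNAs, or between T and TR, was not tested. With the deposited counts summed without the rRNAs, the mitochondrial share was 4.02% in T and 0.115% in TR.

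Of the 22 mitochondrial tRNA genes 21 were lower and 1 was higher. The median ratio was -5.02 for the 8 encoded on the light strand and -2.95 for the 14 on the heavy strand. The tRNAs are 59 to 75 bases long, shorter than the 150-base reads, so a read that covers one whole also reaches beyond it. The sequences of the pair with the lowest ratios and of the one tRNA that was higher, taken from the GENCODE v29 transcripts on GRCh38 and all on the plus strand in lower case with no base marked, are shown to let them be compared.
MT-TL1: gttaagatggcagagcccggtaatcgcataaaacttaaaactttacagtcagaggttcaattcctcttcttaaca
MT-TD: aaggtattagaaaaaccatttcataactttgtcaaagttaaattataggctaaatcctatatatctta
MT-TT: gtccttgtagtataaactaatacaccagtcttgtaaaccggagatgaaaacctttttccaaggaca
MT-TL1 (leucine tRNA, mitochondrial positions 3230 to 3304) lies between MT-RNR2 and MT-ND1 and had 4380 counts in T and 59 in TR, a log2 FPKM ratio of -6.21. MT-TD (aspartate tRNA, positions 7518 to 7585) lies just before MT-CO2 and had 507 counts in T and 1 in TR, a count ratio of 0.00181 relative to library totals, with a 95% counting interval of 4.58e-05 to 0.0101. MT-TT (threonine tRNA, positions 15888 to 15953) lies after MT-CYB at the end of the heavy-strand unit and had 147 counts in T and 331 in TR, an FPKM of 28.4 and 59.0 and a log2 ratio of 1.03. It was the only mitochondrial gene called higher, while in R against Control its ratio was -1.21 and in GR against G it was 0.27.

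**Figure D2:**
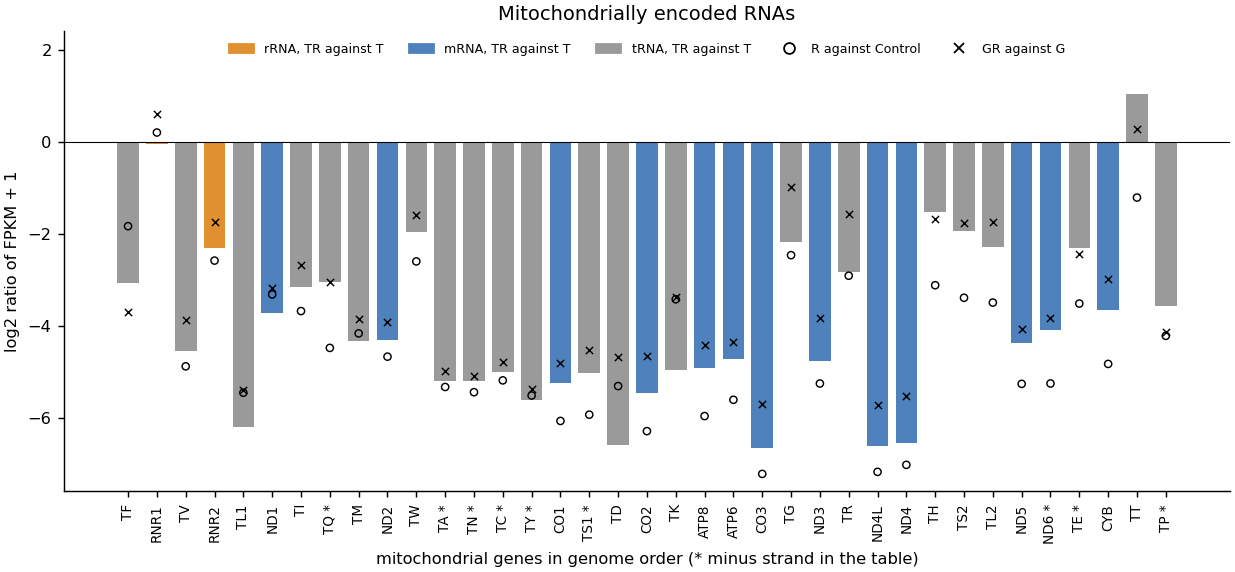
Log2 ratio of FPKM + 1 for the 37 mitochondrial genes in genome order, with bars for TR against T coloured by kind of RNA, circles for R against Control and crosses for GR against G (1 library per group). All 13 mRNA bars lie between -6.65 and -3.65, the bar of MT-RNR1 is close to 0 at -0.06, and MT-TT is the only bar above 0.

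Nuclear genes for the mitochondrion did not move as a block. Of 81 nuclear subunits of the respiratory chain compared, 16 were higher in TR (background 6.0%) and none lower, with a median log2 ratio of 0.61. UQCRQ, a subunit of complex III, had an FPKM of 8.04 in T and 23.6 in TR. NDUFA2, a subunit of complex I, had 6.20 in T and 20.9 in TR. In R against Control and GR against G the list's medians were 0.29 and 0.26, with 0 members past 2-fold in either (background 3.0% and 1.37% higher, 7.42% and 2.18% lower). By contrast, of 27 genes for replication, transcription and RNA processing of mitochondrial DNA 8 were lower (background 11.9%) and 0 higher, with a median of -0.73. Of these 27 genes 4 passed the filter in T alone and had to lie below 0. Of the 81 respiratory subunits 2 passed in TR alone and had to lie above 0. The lower members included FASTKD1 and FASTKD2, RNA-binding proteins of mitochondrial RNA granules, at -1.73 and -1.25, MTERF3, of the mitochondrial transcription termination factor family, at -1.27, and PNPT1, a polynucleotide phosphorylase, at -1.22. TWNK, the mitochondrial helicase, was at 12.5 in T and 5.72 in TR, with a ratio of -1.0. TFAM, which packages the genome and starts transcription, was at 12.3 and 6.62, a ratio of -0.81 that was not called, and POLRMT, the RNA polymerase, was at 28.9 and 34. TRMT10C, a subunit of the enzyme that cuts tRNAs from the mitochondrial precursor, was among the 15 lowest nuclear genes that reached an FPKM of 5 in T or TR and have no same-strand overlap: its FPKM was 13.5 in Control, 12.5 in T, 12.2 in G, 1.21 in R, 1.74 in TR and 8.52 in GR. Its 2 lowest libraries were R and TR, and the log2 ratio in TR against T was -2.30. Of 78 mitochondrial ribosomal protein genes 6 were higher and 2 lower (median 0.18). Among nuclear genes with an FPKM of at least 5 and no same-strand overlap, both lowest ratios belonged to MTCO1P12 (-4.57) and MTND2P28 (-4.05), copies of mitochondrial genes on chromosome 1 to which reads of the mitochondrial transcripts can be assigned.

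Genes of cell division were higher in TR than in T. Among the 49 genes compared from the list of G2/M and mitosis, 31 passed 2-fold upward (background 6.0%) and 0 downward, and the median log2 ratio was 1.39. CDC20 (ENSG00000117399, chr1:43358981-43363203, plus strand in the table), which activates the anaphase-promoting complex, had an FPKM of 131 in Control, 29.7 in T, 66.2 in G, 194 in R, 221 in TR and 169 in GR, and a TR over T ratio of 2.86. FOXM1, a transcription factor of mitotic genes, had 28.7 in Control, 5.44 in T, 24.8 in G, 39.7 in R, 42.9 in TR and 48.8 in GR, a ratio of 2.77. In both genes T was the lowest of the 6 libraries and TR was close to R. KIF20A, a kinesin of cytokinesis, had 3.16 in T and 26.3 in TR, and AURKB, a kinase of chromosome segregation, had 10.5 in T and 67.9 in TR. The list's median was -1.43 in T against Control, a comparison that shares the T library, -0.05 in R against Control and 0.39 in GR against G. Of the tubulins, the building blocks of the spindle, 9 of 10 compared were higher. TUBA1B had 448 in Control, 90.7 in T, 325 in G, 427 in R, 461 in TR and 490 in GR. TUBB4B, named after its values were seen, had 245 in Control, 55.9 in T, 156 in G, 76.1 in R, 164 in TR and 301 in GR. Its ratio was 1.54 in TR against T and -1.68 in R against Control. In R against Control the tubulin list had a median of 0.01, with 1 member 2-fold higher and 2 lower.

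Of 41 S phase and DNA replication genes 4 were higher (background 6.0%) and none lower, with a median of 0.33. That count is close to the background, so the 4 are described singly, and most were enzymes of nucleotide supply. The list's median was -0.60 in R against Control, -0.41 in GR against G and -0.96 in T against Control, which shares the T library. TYMS, thymidylate synthase, had an FPKM of 98.8 in Control, 10.1 in T, 107 in G, 85.6 in R, 87.1 in TR and 105 in GR, a ratio of 2.99. TK1, thymidine kinase, had 43.9 in Control, 6.10 in T, 51.1 in G, 48.3 in R, 56.2 in TR and 57.2 in GR, a ratio of 3.01. RRM2, a subunit of ribonucleotide reductase, had 2.88 in T and 19.8 in TR, and RFC2, a subunit of the clamp loader, had 10.5 and 27.7. For TYMS and TK1 the T library alone stood low, and the other 5 lay within 85.6 to 107 and 43.9 to 57.2. Cyclin-dependent kinase inhibitors, which brake the same cycle, were also higher, 5 of 7 compared: CDKN2D had 1.18 in T and 16.9 in TR, CDKN1A had 1.21 and 5.25, CDKN1B had 3.08 and 10.0, and CDKN3, a phosphatase of cyclin-dependent kinases, had 8.18 and 26.2.

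The promoter windows of RefSeq (250 bases before to 50 after the start, GRCh38.p14) were searched on both strands for short motifs known from cell-cycle promoters. Windows were found for 42 of the 49 G2/M genes. Of these 42 genes, 35 (83.3%) had a window with CCAAT and 29 (69.0%) a window with TTTGAA, a core of the cell cycle homology element. Among all protein-coding genes compared that have a window, the shares were 43.8% and 13.4%. The window of CDC20 (chr1:43358731-43359030, plus strand), the mitotic gene with the highest ratio, is shown with each CCAAT or TTTGAA in either direction in capitals.
CDC20: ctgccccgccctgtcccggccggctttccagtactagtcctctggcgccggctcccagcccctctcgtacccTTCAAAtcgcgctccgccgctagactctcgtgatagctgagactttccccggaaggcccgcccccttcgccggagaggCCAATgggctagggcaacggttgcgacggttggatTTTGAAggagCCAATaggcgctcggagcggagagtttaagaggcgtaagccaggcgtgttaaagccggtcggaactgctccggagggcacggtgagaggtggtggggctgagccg
It held 2 matches to CCAAT and 4 to both motifs together. Over all 35116 RefSeq windows the shares were 34.6% for CCAAT and 15.2% for TTTGAA, counted per window rather than per gene.

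Genes of the integrated stress response were lower in TR than in T. Of 32 members compared 15 were at least 2-fold lower (background 11.9%) and 3 higher, with a median log2 ratio of -0.95. CHAC1 (ENSG00000128965, chr15:40952962-40956512, plus strand), an enzyme that degrades glutathione, had an FPKM of 5.44 in Control, 22.6 in T, 11.2 in G, 0.951 in R, 1.41 in TR and 7.24 in GR, a ratio of -3.29. TRIB3, a pseudokinase, had 20.7 in Control, 82.0 in T, 23.8 in G, 5.69 in R, 12.5 in TR and 21.4 in GR, a ratio of -2.62. T was the highest library for both genes, and TR lay below Control. INHBE, a secreted inhibin subunit, had 10.2 in T and 0.418 in TR, a ratio of -2.98, and SESN2, a leucine sensor, had 34.2 and 5.58. Of the genes for amino acid synthesis, PSAT1 of the serine pathway had 43.1 in Control, 181 in T, 68.0 in G, 30.7 in R, 30.7 in TR and 56.6 in GR, and ASNS, asparagine synthetase, had 123 in T and 20.3 in TR. SLC7A11, the cystine importer, had 6.41 in T and 1.11 in TR. The 3 higher members, named after their values were seen, were GDF15, STC2 and PPP1R15A. STC2 had 17.3 in Control, 50.9 in T, 55.3 in G, 77.4 in R, 113 in TR and 106 in GR, and thus did not follow the others.

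Regulators of the response varied among themselves. ATF4, named after its value was seen, had an FPKM of 258 in T and 146 in TR, a ratio of -0.82, and DDIT3, also named afterwards, had 51.3 and 26.5, a ratio of -0.93. Neither was called. CEBPG, a partner of ATF4 in DNA binding, had 25.2 in T and 4.31 in TR, a ratio of -2.31. The list's medians in the other pairs were -0.03 for R against Control and -0.05 for GR against G, whereas in T against Control, which shares the T library, the median was 1.39 with 21 members 2-fold higher (background 2.57% higher, 2.46% lower). Cytosolic aminoacyl-tRNA synthetases, which load tRNAs with amino acids, went the same way: 8 of 20 were lower in TR (background 11.9%) and 0 higher, with a median of -0.76. WARS1 had 17.7 in Control, 49.8 in T, 27.0 in G, 15.2 in R, 19.1 in TR and 26.9 in GR, and EPRS1 had 86.6 in T and 24.9 in TR.

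Windows of CHAC1 (chr15:40953221-40953520, plus strand) and CEBPG (chr19:33373863-33374162, plus strand), 2 lower genes of this response, are shown because each holds TGATGCAA, a composite site type that binds ATF4 with a C/EBP factor, in either direction. Capitals mark TGATGCAA and, in CHAC1, also CCAAT, in either direction. For CEBPG any window without a match was left out.
CHAC1: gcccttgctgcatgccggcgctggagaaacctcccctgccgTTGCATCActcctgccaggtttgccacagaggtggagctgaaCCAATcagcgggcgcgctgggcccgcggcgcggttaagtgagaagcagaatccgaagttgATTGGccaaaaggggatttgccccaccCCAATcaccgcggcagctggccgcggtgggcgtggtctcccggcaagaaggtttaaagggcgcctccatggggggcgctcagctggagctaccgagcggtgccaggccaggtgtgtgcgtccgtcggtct
CEBPG: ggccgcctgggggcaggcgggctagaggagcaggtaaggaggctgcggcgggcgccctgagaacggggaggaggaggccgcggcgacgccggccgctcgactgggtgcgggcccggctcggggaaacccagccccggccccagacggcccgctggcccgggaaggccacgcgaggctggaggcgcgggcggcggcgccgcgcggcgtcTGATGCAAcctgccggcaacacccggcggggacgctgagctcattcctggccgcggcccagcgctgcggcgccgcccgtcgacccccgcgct
Each window held 1 match to TGATGCAA, and 0.866% of all 35116 RefSeq windows did so. Counted per gene, 12 of 953 protein-coding genes called lower that have a window had a match (1.26%). Among those called higher it was 3 of 529 (0.567%), and among all compared 62 of 8953 (0.693%). CHAC1 and CEBPG were the only 2 with a match among the 25 list members that have a window. Since 25 of 32 is fewer than 80% of the members, nothing is read from it.

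Immediate early genes, the first to be transcribed after a stimulus, were higher in TR. Of 31 compared 14 were higher (background 6.0%) and 1 lower, with a median log2 ratio of 0.93. FOS (ENSG00000170345, chr14:75278826-75282230, plus strand), a subunit of the AP-1 transcription factor, had an FPKM of 1.33 in Control, 0.593 in T, 1.35 in G, 25.8 in R, 21.1 in TR and 2.28 in GR, a ratio of 3.79. ZFP36, which speeds the decay of AU-rich mRNAs, had 2.70 in Control, 2.00 in T, 2.28 in G, 27.5 in R, 33.6 in TR and 6.75 in GR, a ratio of 3.53. DUSP1, a phosphatase that switches off MAP kinases, had 72.0 in Control, 192 in T, 78.9 in G, 1133 in R, 1278 in TR and 130 in GR, a ratio of 2.73. In these genes R and TR stood apart above the other 4 libraries. The median was 0.93 in R against Control and 0.36 in GR against G. The lower member, named after its value was seen, was EGR1, a zinc finger transcription factor, at -1.87. NR1D1, a repressor of the circadian clock, had 3.19 in T and 23.7 in TR, and PER1, another clock gene, had 5.19 and 22.7, while the 15 clock genes as a list had 4 higher and 3 lower members.

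Heat shock genes were split. Of 18 compared 4 were higher (background 6.0%) and 0 lower and the list had a median of 0.28. HSPA1A (ENSG00000204389, chr6:31815543-31817946, plus strand), the stress-inducible HSP70, had an FPKM of 35.8 in Control, 15.7 in T, 34.2 in G, 350 in R, 267 in TR and 36.0 in GR, a ratio of 4.0 and the highest among genes with an FPKM of at least 5 that overlap no other gene. HSPA1B, a near-identical copy whose reads cannot be told apart with certainty, had 15.5 in T and 259 in TR. HSPB1, a small heat shock protein, had 73.8 and 230, and BAG3, a co-chaperone, had 26.1 and 68.5. For HSPA1A the libraries R and TR were high and GR was at the level of G.

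Replication-dependent histone genes, whose mRNAs normally end in a stem-loop without a poly(A) tail, were barely seen in these oligo(dT)-selected libraries. Of 64 measured, 13 passed the filter, 8 of them through TR alone, which had to differ, so their count of 12 higher is a description. H2AC19 had an FPKM of 1.26 in Control, 1.5 in T, 2.03 in G, 34.8 in R, 30.4 in TR and 6.19 in GR, a ratio of 3.65, and its near-identical neighbour H2AC18 had 1.56 in T and 27.0 in TR. H2BC12 had 6.62 in T and 28.4 in TR. The window of H2AC19 (chr1:149850811-149851110, plus strand) is shown as an example, with CCAAT and TATAAA in either direction in capitals.
H2AC19: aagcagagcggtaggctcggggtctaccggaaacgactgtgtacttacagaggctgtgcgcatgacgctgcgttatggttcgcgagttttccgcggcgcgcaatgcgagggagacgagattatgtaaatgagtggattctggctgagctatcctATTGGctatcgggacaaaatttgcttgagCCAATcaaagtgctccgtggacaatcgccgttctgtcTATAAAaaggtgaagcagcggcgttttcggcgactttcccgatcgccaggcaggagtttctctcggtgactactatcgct
All 13 genes had a window with CCAAT and 10 (76.9%) a window with TATAAA, against 8.14% for TATAAA among all protein-coding genes compared that have a window. Counted per window, 11.5% of all RefSeq windows held TATAAA.

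**Figure D3:**
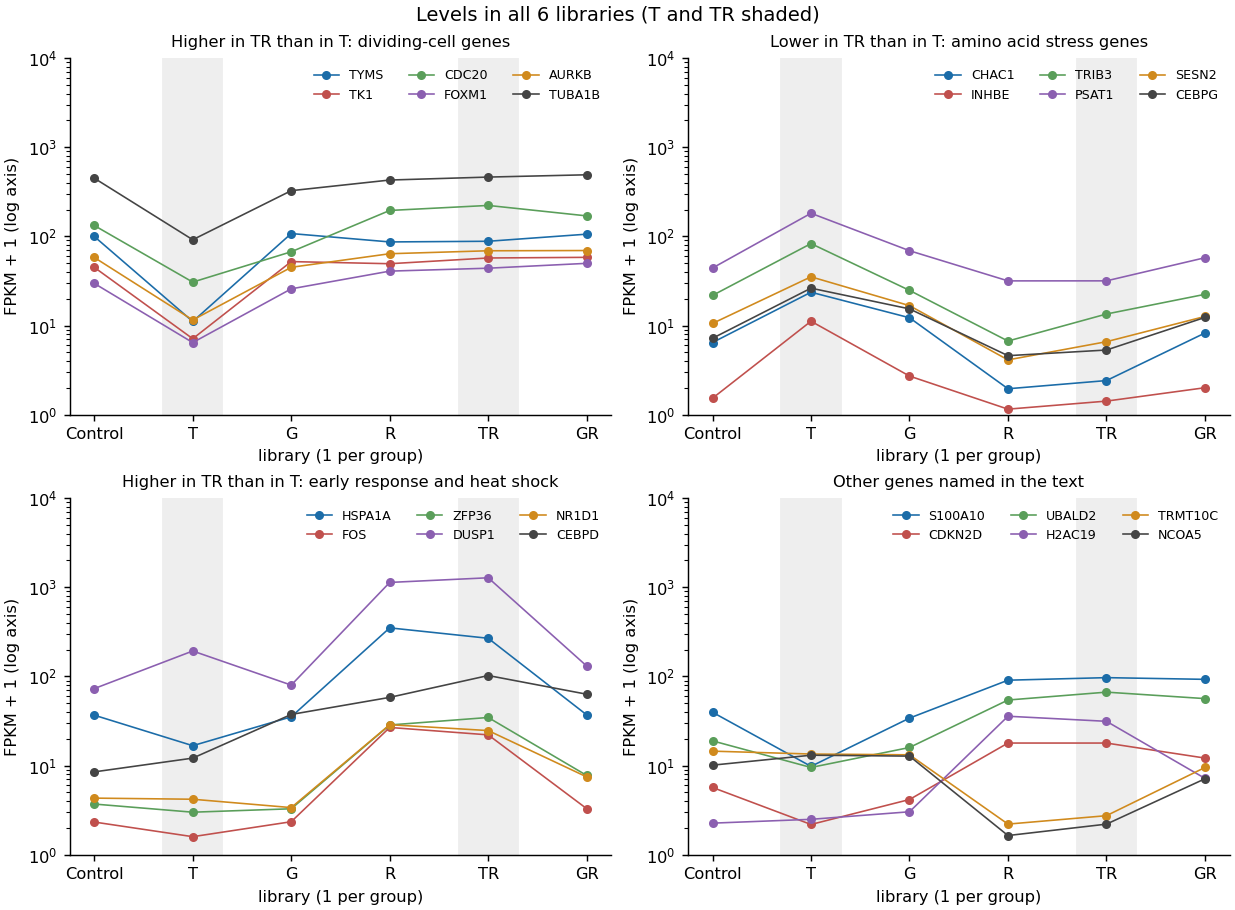
FPKM + 1 on a log axis in each of the 6 libraries (1 per group, points joined only to guide the eye), for genes of dividing cells, the amino acid stress response, the early response with heat shock, and 6 other genes. T (shaded) is lowest for TYMS at 10.1 and highest for CHAC1 at 22.6, while FOS and HSPA1A are high in R and TR and near the Control level in GR.

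Among other genes with the highest ratios, several were high in all 3 libraries with R. S100A10, the annexin A2 partner, had an FPKM of 38.6 in Control, 8.80 in T, 33.1 in G, 89.8 in R, 96.0 in TR and 91.8 in GR. CEBPD, an inflammation-related C/EBP factor, had 7.5 in Control, 11.1 in T, 36.5 in G, 57.2 in R, 101 in TR and 62.2 in GR. UBALD2 had 17.9 in Control, 8.53 in T, 15.0 in G, 53.4 in R, 65.7 in TR and 55.4 in GR. In each of these genes the R, TR and GR libraries lay above all those without R. MMP3, the matrix protease stromelysin, had 0.816 in T and 11.7 in TR, and VIM-AS1, an antisense RNA at the vimentin locus, had 2.42 and 43.9 while VIM itself was level; whether counting used strand is unknown, so reads of this pair may be mixed. TNFRSF6B, a decoy receptor for FAS ligand, had the ratio 4.47, but another same-strand gene overlaps it, so its reads may be shared.

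Among the lowest, some stood low in R and TR alone and others only came down from a high T level. NCOA5, a nuclear receptor coactivator, had an FPKM of 9.11 in Control, 12.1 in T, 11.8 in G, 0.641 in R, 1.20 in TR and 6.11 in GR, a ratio of -2.57. OGT, the enzyme that adds O-linked N-acetylglucosamine to proteins, had 17.0 in Control, 46.9 in T, 41.5 in G, 10.9 in R, 8.77 in TR and 18.4 in GR, a ratio of -2.29. SPX, which encodes the peptide hormone spexin, had 1.68 in Control, 15.1 in T, 3.68 in G, 1.79 in R, 1.56 in TR and 1.95 in GR, a ratio of -2.65. SPX in TR was thus at the level of Control. TASOR, a subunit of the HUSH silencing complex, had 14.5 in T and 1.9 in TR. KRCC1 had 19.6 in T and 2.59 in TR, and RNVU1-24, a variant U1 small nuclear RNA of a multigene family, had 27.3 and 3.31.

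Metabolic and secreted groups leaned higher. Of 22 glycolysis genes 8 were higher (background 6.0%) and 0 lower and the list had a median of 0.80. The glucose transporters SLC2A3 and SLC2A1 had ratios of 2.38 and 2.05, but both overlap another gene on the same strand. Of the 22 genes 12 have such an overlap. Triose-phosphate isomerase TPI1 had 128 in T and 399 in TR, and pyruvate kinase PKM had 126 and 304. Of 37 proteasome genes 4 were higher and 0 lower and the list had a median of 0.32. Of 27 chemokine, cytokine and other secreted genes 9 were higher and 0 lower, and the median was 0.52 in TR against T, 0.52 in R against Control and -0.30 in GR against G. IGFBP7, an insulin-like growth factor binding protein, had 4.15 in Control, 8.76 in T, 35.4 in G, 27.3 in R, 43.0 in TR and 62.1 in GR. IGFBP3 of the same family had 1.63 in T and 11.5 in TR. Of 26 mesenchymal and matrix genes 8 were higher and 1 lower: SPARC, a matrix glycoprotein, had 28.5 and 140, SNAI1, a repressor of epithelial genes, had 1.14 and 8.14, and THBS1, thrombospondin, had 3.45 and 18.2.

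**Figure D4:**
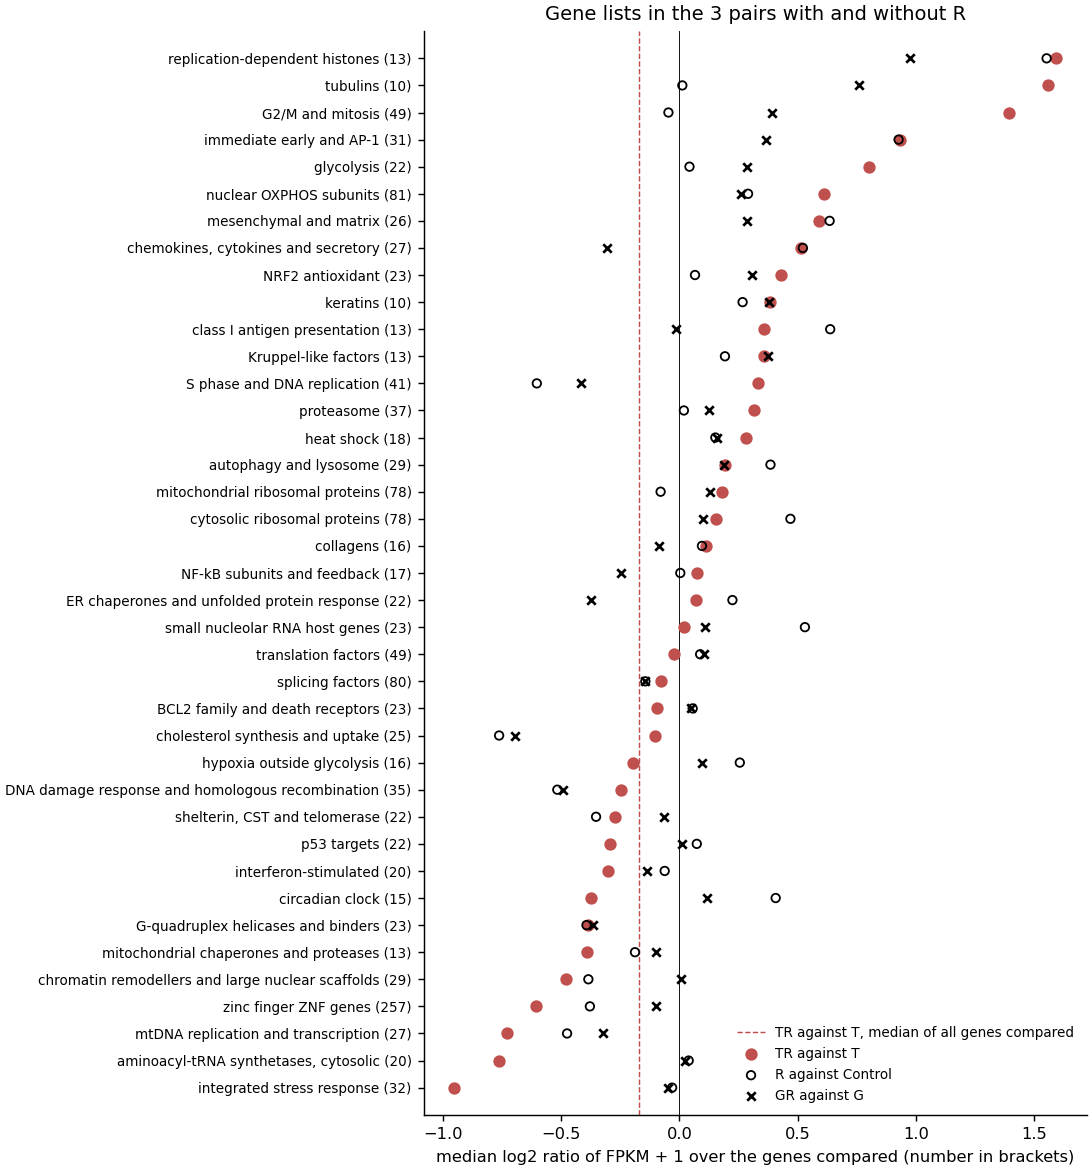
Median log2 ratio of FPKM + 1 for each gene list with at least 10 genes compared (number in brackets), with 1 library per group. Pairs are TR against T (filled), R against Control (open circles) and GR against G (crosses). The mitochondrial mRNAs and tRNAs, with TR against T medians of -4.77 and -3.36, are left out. The dashed line marks the TR against T median of all genes, -0.17. The G2/M list lies at 1.39 in TR against T and at -0.05 and 0.39 in the other pairs, and the integrated stress response list at -0.95 against -0.03 and -0.05.

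Zinc finger, chromatin and DNA repair genes held more members past 2-fold downward than upward. Of 257 ZNF genes compared, of 503 in the table, 55 were lower (background 11.9%) and 1 higher, with a median of -0.60, but 95 of the 257 had passed the filter in T alone and had to lie below 0, so the count and median are a description. Of 29 chromatin remodellers and large nuclear scaffolds 9 were lower and 0 higher, with a median of -0.48, among them CHD1, a chromodomain remodeller, at 6.13 in T and 1.64 in TR, and DICER1, which cuts microRNA precursors, at 3.20 and 0.606. Of 35 genes of the DNA damage response 8 were lower and 1 higher: RAD50 had 10.8 and 2.68, its partner MRE11 had 7.06 and 1.83, and the checkpoint kinase ATR had 2.56 and 0.410. All 3 overlap another gene on the same strand. Of the 29 chromatin genes 5, and of the 35 DNA damage genes 8, had passed the filter in T alone. These had to lie below 0, so the counts of both lists are a description. The median of the DNA damage list was -0.25 on the deposited FPKM and 0.02 with TMM factors, so no direction is given for it. Of 23 helicases and proteins known to unwind or bind G-quadruplexes 5 were lower and 0 higher: DHX36 had 8.32 in T and 2.58 in TR, WRN had 4.69 and 1.17, DDX21 had 51.4 and 20.4, and ATRX had 4.12 and 1.43, with NCL, nucleolin, named after its value was seen, at a ratio of -1.01.

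Telomere genes mostly stayed within 2-fold. Of 22 shelterin, CST and telomerase genes 1 was higher (background 6.0%) and 1 lower (background 11.9%), with a median of -0.27, so neither count stood above the background. POT1, which binds single-stranded telomeric DNA, had an FPKM of 5.59 in T and 2.30 in TR, just short of the call. TERF1 had 1.75 and 0.974, TERF2 had 6.76 and 6.30, and TERT, the telomerase reverse transcriptase, had 1.10 and 0.601. NAF1, a telomerase assembly factor, was the lower member at -1.01. MYC, whose promoter holds a well-studied G-quadruplex, had 59.9 in Control, 62.5 in T, 47.5 in G, 94.6 in R, 107 in TR and 54.2 in GR, a ratio of 0.77 that was not called.

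The ratio moved with base composition and length. Over the 12220 genes with a value, Spearman's correlation of the TR over T ratio was 0.45 with the GC content of the longest transcript and -0.26 with its length, given as a description since the genes share 2 libraries. The median GC content was 55.9% for the higher genes, 41.7% for the lower and 48.2% for all, and the median length was 2117, 4092 and 3340.5 bases. From the lowest to the highest sixth of GC content the median ratio went from -0.67 to 0.27. The same correlation with GC was 0.47 in GR against G, 0.03 in R against Control and -0.30 in T against Control. With the trends over GC and length removed, 487 genes were higher and 1222 lower, of which 381 and 772 were among those called before. The medians of the main lists then were 1.58 for G2/M, 1.12 for tubulins, -1.06 for the integrated stress response, 0.67 for immediate early genes, 0.53 for glycolysis, 0.49 for nuclear respiratory subunits, -0.48 for the mitochondrial DNA list and -0.45 for ZNF genes. The part of base composition in single results was otherwise not tested.

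**Figure D5:**
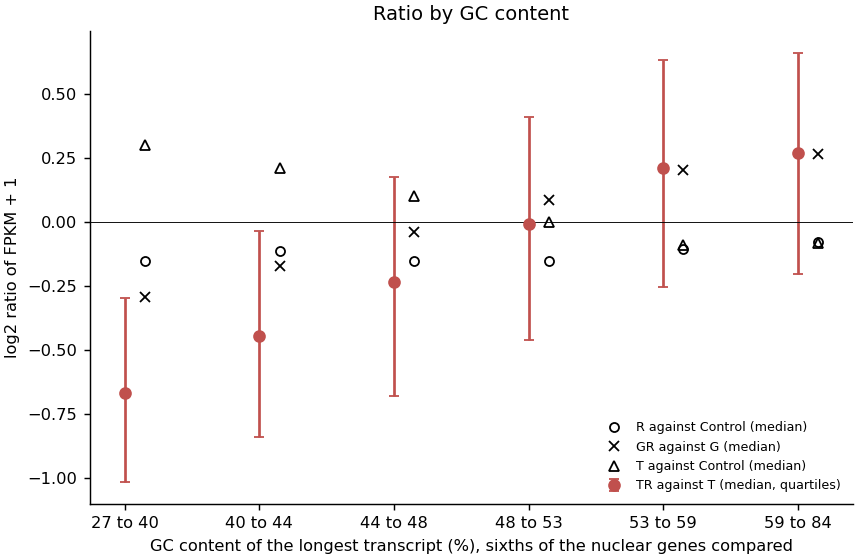
Median log2 ratio of FPKM + 1 by sixth of the nuclear genes compared, ordered by GC content of the longest transcript, with quartiles for TR against T and medians alone for the other pairs (1 library per group). TR against T climbs from -0.67 to 0.27, and R against Control shows no such slope.

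The kind of gene differed as well. Protein-coding genes were 85.8% of the higher, 76.5% of the lower and 85.4% of all genes compared, and genes with only long noncoding transcripts were 5.45%, 14.3% and 8.11%. Of the higher genes 213 and of the lower genes 467 overlap another gene on the same strand. Without such overlap were 539 of the 752 higher, 1020 of the 1487 lower and 8797 of all 12533 genes. These shares were close to each other. A promoter window counted as able to form a G-quadruplex if either strand held 4 runs of at least 3 G. The runs had 1 to 7 bases between them. Of protein-coding genes with a window, 45.7% of the higher, 34.5% of the lower and 41.2% of all compared had at least 1 such window. Counted per window, the share was 25% of all RefSeq windows, which is not like for like, since a gene can have several. Windows were found for 82.0% of the higher, 84.7% of the lower and 83.7% of all protein-coding genes compared.

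The pairs R against Control and GR against G share no library with TR and T. Of the 752 genes higher in TR, 651 (86.6%) had a ratio above 0 in R against Control, and 192 (25.5%) were 2-fold higher there, which is 54.1% of the 355 genes higher in that pair. In GR against G 669 (89.0%) had the same sign and 109 (14.5%) were 2-fold higher, 63.0% of its 173. Of the 1487 lower genes, 1356 (91.2%) had the same sign in R against Control and 383 (25.8%) were 2-fold lower, 43.7% of its 877. In GR against G, 1391 (93.5%) had the same sign and 143 (9.62%) were 2-fold lower, 52.0% of its 275. In all 3 pairs 54 genes were higher and 81 lower, and in neither other pair past 2-fold were 505 of the higher and 1042 of the lower genes. The called shares of those pairs were 3.0% higher and 7.42% lower for R against Control, and 1.37% and 2.18% for GR against G. The same-sign shares have no share over all genes beside them. Over all genes compared the median ratio was -0.13 in R against Control and -0.005 in GR against G. The ratios of TR against T and GR against G both rose with GC content (0.45 and 0.47). Its part in the shared signs was not tested.

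The steadiest nuclear genes over the 3 pairs were few. By the smallest of the 3 ratios, among genes that reached an FPKM of 5 in T or TR and have no same-strand overlap, CDKN2D, an inhibitor of CDK4 and CDK6, led the higher ones with 3.03 in TR against T, 1.66 in R against Control and 1.54 in GR against G. TIPARP, a mono-ADP-ribosyltransferase, had 2.12, 2.19 and 1.41, and GPRC5A, an orphan receptor, had 2.70, 2.22 and 1.36. Of the lower ones, ESM1, a secreted proteoglycan, had -2.01, -1.91 and -1.88, CDC7, the kinase that fires replication origins, had -1.83, -1.68 and -1.55, and SFPQ, a splicing factor of paraspeckles, had -1.80, -1.87 and -1.37. All of these kept their sign in each pair by the rule that chose them.

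Other genes differed in TR against T while both other pairs were within 0.25 of 0 on the log2 scale. This held for 37 of the 752 higher and 59 of the 1487 lower genes. At least 842 of the genes compared, called or not, lay this near 0 in both pairs. As a lower bound, 842 gives no share over all 12533 genes to set beside these counts. Such nearness was thus not particular to the called genes. Those named by rule among the higher were TYMS, TK1, MYBL2, RRM2, ALYREF and CHST7. MYBL2, a transcription factor of cell-cycle genes, had an FPKM of 11.3 in Control, 1.88 in T, 23.6 in G, 11.3 in R, 15.5 in TR and 20.0 in GR, a ratio of 2.52. ALYREF, an mRNA export adaptor, had 77.3 in Control, 24.1 in T, 50.6 in G, 74.1 in R, 74.0 in TR and 57.1 in GR. Among the lower, IDH1, the cytosolic isocitrate dehydrogenase, had 17.9 in Control, 33.4 in T, 16.5 in G, 15.3 in R, 13.1 in TR and 14.8 in GR, and LIAS, lipoic acid synthetase, had 6.68 in T and 2.35 in TR. In each of these genes T was the library that stood apart. Over all called genes, 186 of the 752 higher in TR were at least 2-fold lower in T than in Control (background 2.46%). Of the 1487 lower in TR, 186 stood 2-fold or more above Control in T (background 2.57%). Both counts rest on the same T library, which enters both ratios.

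Around the thresholds, the last genes called higher were NENF, GUCD1 and GAS2L1, with FPKM of 13.5 and 28.0, 12.3 and 25.7, and 3.27 and 7.56 in T and TR. Just outside lay PEDS1 at 3.00 and 6.98, the pseudogene CKS1BP3 at 3.02 and 7.04, and TMSB4X at 95.9 and 193. The last called lower were YEATS4 at 22.4 and 10.7, RGPD5 at 2.01 and 0.504, and ZNF25 at 4.19 and 1.60. Just outside were ZFPM2-AS1 at 3.18 and 1.09, AGAP6 at 3.22 and 1.11, and PDS5A at 22.4 and 10.7.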

How the data were processed

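RNA sequencing of 6 ES2 cultures was analysed from 1 deposited table that gives, per the file headers, a read count and an FPKM for each of 33706 genes and library. The authors' count values, all whole, and the authors' FPKM values entered as deposited, with no column left out. Per the labels' protocols, libraries of oligo(dT)-selected mRNA kept the strand (dUTP) and were read as pairs of 150 bases, with 2 sequencers named in the labels. Tools listed by the submitters' processing notes, with no role, are StringTie 2.1.6, HISAT2 2.2.1, cutadapt 1.9, edgeR and DESeq2. Neither the build and annotation nor the treatment of overlapping genes and near-identical copies is stated (not given in the sources used here). GENCODE v29 holds 92.6% of the gene identifiers, 99.9% of which overlap its GRCh38 coordinates, so the table's own coordinates are printed as GRCh38.

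Groups were taken from the sample titles. TR was compared with T by the log2 ratio of FPKM + 1 over genes that reached an FPKM of 1 in either, called at 2-fold, with no test, since each group has 1 library. Intervals are 95% Clopper-Pearson for count ratios, scaled to library totals, and Wilson for shares, and cover counting error only. Alternatives were other pseudocounts (0.1 and 5), filters, thresholds, scaling by edgeR 4.0.16 TMM factors or median-of-ratios factors, removal of GC and length trends, and omission of overlapping genes. Python 3.11.15, pandas 2.3.3, numpy 2.4.6, scipy 1.17.1 and R 4.3.3 were used. The calling was tested on simulated data.

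Named genes had an FPKM of at least 5 in T or TR, their own symbol, no overlap on the same strand and no place on the mitochondrial genome: the 15 highest and 15 lowest ratios, the 8 steadiest each way over the 3 pairs with and without R, and the 6 each way with both other pairs within 0.25 of 0. To these were added the 4 largest absolute ratios of each list, the 3 genes on each side of each threshold, mitochondrial mRNAs and rRNAs, and a set of fixed genes. These added genes could overlap another gene on the same strand, and ASNS, PER1, THBS1, SREBF1, SLC2A1 and SLC2A3 were among those that did. The comparison, the 45 gene lists and the 5 marker lists were chosen with earlier results of these data known. Sequences come from RefSeq (GRCh38.p14) promoter windows and GENCODE v29 transcripts.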

Additional observations from a re-analysis of the deposited data

Results flagged for a closer look

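MT-TT, the mitochondrial threonine tRNA, had a log2 ratio of 1.03 in TR against T and -1.21 in R against Control, more than 2-fold in opposite directions, while in GR against G, the other pair that adds R, it was 0.27. Its counts were 147 in T, 331 in TR, 262 in Control and 114 in R. TEN1, a subunit of the CST telomere complex, had a ratio of 1.53 in TR against T and -1.05 in R against Control, and -0.70 in GR against G, with an FPKM of 0.637 in T, 3.73 in TR, 5.55 in Control and 2.18 in R. TEN1 overlaps another gene on the same strand, so its reads may be shared. With 1 library per group neither difference between the pairs was tested. Both genes were flagged from the named genes only. Over all called genes, 11 of the 752 higher in TR were at least 2-fold lower in R against Control (background 7.42%). Of the 1487 lower in TR, 6 were at least 2-fold higher there (background 3.0%). In GR against G the same counts were 11 and 6 (background 2.18% lower and 1.37% higher).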

How the results depend on the processing

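No paired analysis was possible because each group has 1 library, and for the same reason no replicate could be left out. As reported, 752 genes were higher in TR, 1487 lower, and the mitochondrial mRNAs had a median log2 ratio of -4.77. With a pseudocount of 0.1, 1090 were higher and 2766 lower and the mitochondrial median was -4.86, and with 5 the values were 369, 229 and -4.68, since low genes are weighed differently. With an FPKM filter of 5, 644 were higher and 813 lower, and leaving out the filter could not change them, since 2 values under 1 cannot differ 2-fold once 1 is added. TMM factors gave 1464 and 780 with -4.45, and median-of-ratios factors gave 1382 and 844 with -4.49, so which direction holds more genes depends on the scaling. The total without mitochondrial genes gave 670 and 1717 with -4.84. With GC and length trends removed, 487 and 1222 were called with -4.48. A 3-fold threshold left 209 and 257, and leaving out overlapping genes 539 and 1020. Without the mitochondrial rRNAs the mitochondrial share was 4.02% in T and 0.115% in TR. Of 216 named genes and lists past 2-fold, 146 to 216 remained past it under the 6 settings that were run on them. Their sign could not change with a pseudocount or a common scaling of this size, and none changed with the GC and length trends removed. Where a cause is not given here it was not tested.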

Other observations

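Several gene groups had few members past 2-fold, beside 6.0% higher and 11.9% lower among all genes compared. Of 78 cytosolic ribosomal protein genes 1 was higher in TR than in T and 0 lower, of 22 ER chaperone and unfolded protein response genes 0 were higher and 1 lower, and of 29 autophagy and lysosome genes 2 were higher and 0 lower. GABARAPL1, an autophagosome protein, had an FPKM of 7.02 in Control, 10.0 in T, 8.49 in G, 24.9 in R, 23.1 in TR and 16 in GR. Of 25 cholesterol genes 2 were lower and 0 higher, STARD4, a sterol carrier, at -1.57 and SREBF1, the lipogenic transcription factor, at -1.35. STARD4 was also lower in R against Control, at -1.13, and in GR against G, at -1.92.

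Cell death and surface genes were mixed. FADD, the adaptor of death receptors, had an FPKM of 134 in Control, 102 in T, 103 in G, 16.1 in R, 35.6 in TR and 112 in GR, so it was low in R and TR and not in GR. BCL2 had 2.61 in T and 0.428 in TR, and CASP8 had 4.66 and 1.27, although CASP8 overlaps another gene on the same strand. NQO1, a quinone reductase of the NRF2 program, had 13.3 in T and 36.9 in TR, and the NRF2 list of 23 had 2 higher and 1 lower member, beside 6.0% and 11.9% of all genes. MKI67, a proliferation marker chosen after its values were seen, had a ratio of 1.04 in TR against T, -1.13 in R against Control and 0.07 in GR against G.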
